A study of Mus musculus with 12 samples.

Results

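The genes described here are 37 enzymes and carriers of the TCA cycle, of the pyruvate dehydrogenase complex that feeds it, and of the anaplerotic routes by which pyruvate, glutamate and malate carbon enters or leaves it. They were taken by symbol from the 37681 genes of the RNAseq table of TRACK kidney cortex, and all 37 were present and had enough reads to be tested among 19399 genes. TRACK mice (TG+) carry a mutated, constitutively active HIF1α, expressed in the proximal tubules from the γ-glutamyl transferase (GGT) promoter, and were compared with transgene-negative littermates (TG-), which are wild type. All were untreated C57BL/6 males, 18 months old, and a thin outer slice of the cortex of each of the 2 kidneys of 3 TG+ mice (43-29, 43-49 and 43-75) and 3 TG- mice (43-26, 43-50 and 43-76) gave 12 libraries. The reads of the kidneys of a mouse were summed, so that n is 3 mice per group.

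Pyruvate made by glycolysis crosses the inner mitochondrial membrane through the mitochondrial pyruvate carrier and is either oxidised to acetyl-CoA by the pyruvate dehydrogenase complex or carboxylated to oxaloacetate. Citrate synthase joins acetyl-CoA and oxaloacetate, and the cycle returns oxaloacetate through isocitrate, α-ketoglutarate, succinyl-CoA, succinate, fumarate and malate. Malic enzymes link malate to pyruvate, and glutamate dehydrogenase and the aminotransferases link glutamate to α-ketoglutarate. Proximal tubule cells are rich in mitochondria and use this pathway both for ATP and, through glutamine and malate, for ammonia and glucose production.

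The libraries held between 21888584 and 33704850 gene reads, or 48052131 to 53275152 per TG+ mouse and 50570271 to 60506785 per TG- mouse. Levels are given as CPM, read counts scaled to a common library total after TMM normalisation, and differences as log2 fold change of TG+ over TG- with its standard error, fitted in edgeR (quasi-likelihood), with p-values adjusted after Benjamini and Hochberg over all genes tested. A gene was called at an adjusted p below 0.05. The genotype labels matched 7 of 7 known HIF1 response genes, all called higher with a median log2 fold change of 3.33. The study had listed each of these except Egln3 for a rise in the same RNAseq data, so that their calls check only how the labels were read. The Hif1a row itself read 86.3 to 109 CPM in TG+ and 103 to 104 CPM in TG-, and whether reads of the transgene were counted there is not given in the sources used here. The slices also differed in marker genes of cell types. Of 20 proximal tubule markers 12 were called lower and none higher, with a summed level of 39505 to 43579 CPM in TG+ and 55245 to 59103 CPM in TG-. Higher calls were made for 12 of 16 immune markers (summed 1200 to 1864 against 363 to 432 CPM), 9 of 9 endothelial, 6 of 8 stromal and 6 of 8 tubule injury markers, and 1 of 13 markers of other nephron segments was called lower. Most of the immune sum came from Igkc (714 to 1179 against 176 to 230 CPM) and Jchain (298 to 537 against 66.4 to 97.8 CPM). Over the 16 immune markers the median log2 fold change was 1.13. All these markers passed the filter on low counts. Beside them, 15.4% of all genes tested were called higher and 10.9% lower, and 8.56% and 34.1% of those at 100 CPM or more. In bulk tissue, fewer cells of a type and less RNA per cell cannot be told apart, and the part of these markers in the results that follow was not tested.

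Across the 37 genes, 3 were called higher in TG+ and 15 lower, and 19 were not called. With libraries scaled by their size alone, in place of TMM, 5 were called higher and 2 lower, and 13 of the 15 lower calls did not hold. The higher genes were Me1, Gpt2 and Acly, and the 15 lower genes were Gpt, Got2, 11 genes of the mitochondrial cycle and the pyruvate dehydrogenase complex, and the cytosolic enzymes Idh1 and Mdh1. Of all genes tested, 15.4% were called higher and 10.9% lower. The 37 genes are mostly abundant, and among genes at 100 CPM or more the background was different, with 8.56% called higher and 34.1% lower. Of the 28 members at that level, 3 (10.7%) were higher and 11 (39.3%) lower, so that the number of falls lay close to that of abundant transcripts in general. The members that differed by more than 0.3 on the log2 scale in either direction were 5, namely Me1, Gpt2, Acly, Got2 and Gpt. The threshold of the study's methods (adjusted p under 0.01, and more than 2 times or less than 0.5 times the TG- level) was passed by Me1 (higher, beside 3.77% of all genes and 1.93% of those at 100 CPM or more) and by Gpt (lower, beside 0.211% of all genes). Me1 lay at the fold limit, and its log2 fold change fell short of it at 0.98 without mouse 43-26, 0.97 without 43-76, 0.92 without 43-29 and 0.99 without 43-75.

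**Figure D1:**
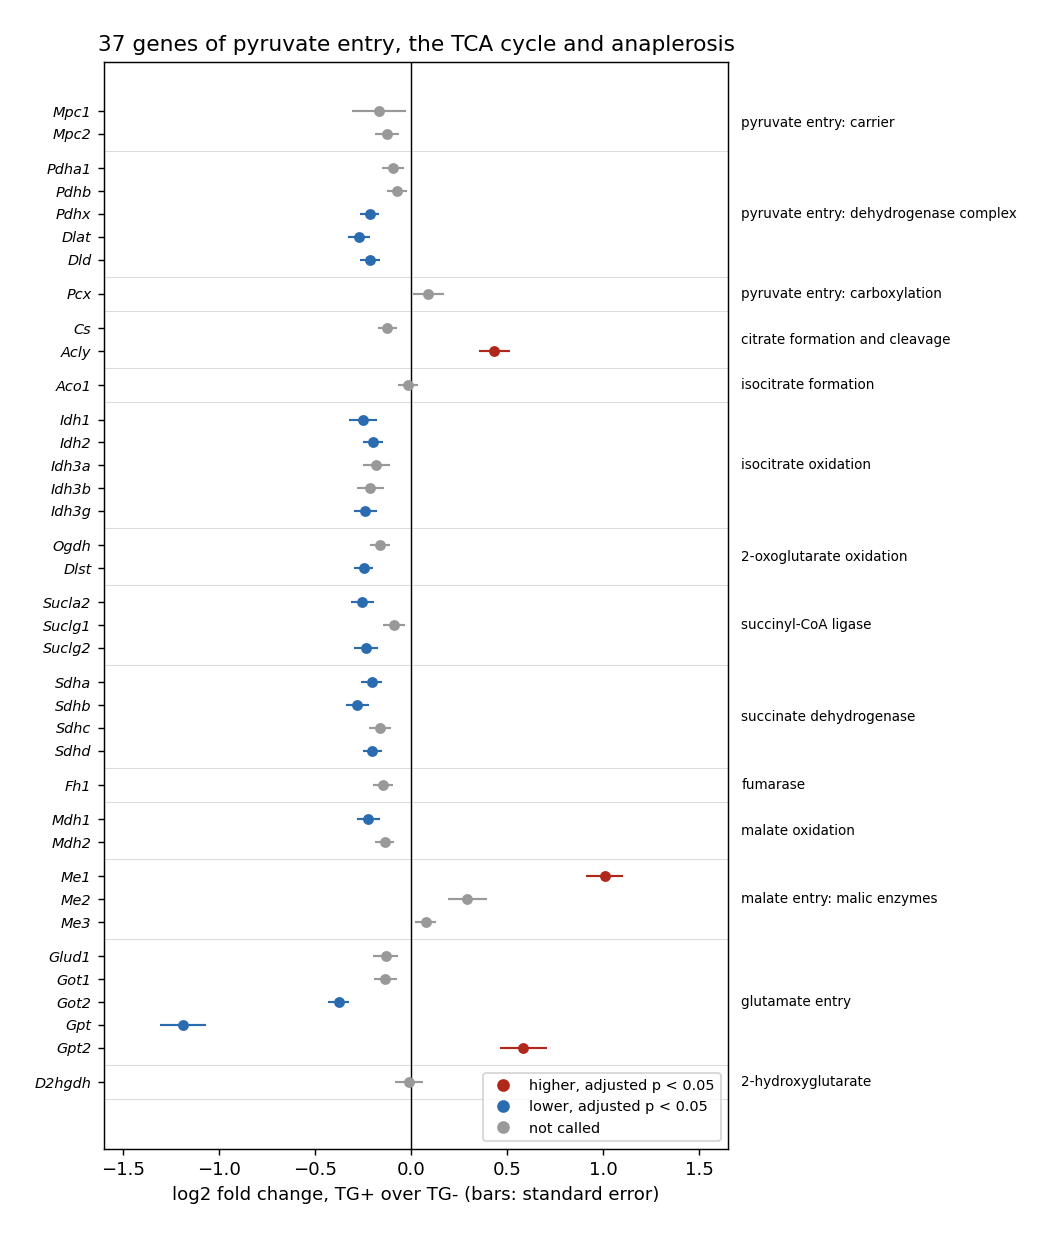
Log2 fold change of TG+ over TG- for each of the 37 genes (points, with the standard error as bars), arranged by step of the cycle and route of entry, n = 3 mice per group. Most points lie slightly left of 0, Me1, Gpt2 and Acly lie clearly to the right and Gpt and Got2 to the left.

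The members with the largest changes and a RefSeq promoter window are shown here by the 250 bases before and 50 bases after their transcription start (GRCm38.p6, printed 5′ to 3′ on the strand of the gene), because Me1, Acly and Gpt2 rose while Got2 fell in the same mice. Capitals mark the core of the hypoxia response element (HRE), searched as ACGTG or GCGTG on both strands, and the core of the antioxidant response element (ARE), searched as TGACNNNGC on both strands. The HRE letters also occur within the E-box CACGTG, and the ARE letters overlap the AP-1 site.
Me1 (chr9:86695865-86696164, - strand): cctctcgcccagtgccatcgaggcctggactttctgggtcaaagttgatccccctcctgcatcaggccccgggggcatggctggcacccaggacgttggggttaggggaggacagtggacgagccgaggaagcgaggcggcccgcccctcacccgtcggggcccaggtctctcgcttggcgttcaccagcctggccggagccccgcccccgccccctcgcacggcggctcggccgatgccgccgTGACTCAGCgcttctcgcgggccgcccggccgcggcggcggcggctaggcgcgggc
Acly (chr11:100527951-100528250, - strand): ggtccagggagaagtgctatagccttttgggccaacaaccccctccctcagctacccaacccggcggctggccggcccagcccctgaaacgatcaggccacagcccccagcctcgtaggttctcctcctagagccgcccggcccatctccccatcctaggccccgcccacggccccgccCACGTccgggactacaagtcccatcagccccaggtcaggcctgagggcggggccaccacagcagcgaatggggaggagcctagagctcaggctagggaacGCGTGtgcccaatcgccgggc
Gpt2 (chr8:85492326-85492625, + strand): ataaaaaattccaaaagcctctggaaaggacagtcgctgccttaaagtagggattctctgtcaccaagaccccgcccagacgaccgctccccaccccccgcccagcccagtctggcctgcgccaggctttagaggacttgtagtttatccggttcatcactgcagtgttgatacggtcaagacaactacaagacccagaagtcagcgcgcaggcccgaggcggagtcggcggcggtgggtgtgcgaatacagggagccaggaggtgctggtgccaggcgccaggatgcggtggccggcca
Got2 (chr8:95888352-95888651, - strand): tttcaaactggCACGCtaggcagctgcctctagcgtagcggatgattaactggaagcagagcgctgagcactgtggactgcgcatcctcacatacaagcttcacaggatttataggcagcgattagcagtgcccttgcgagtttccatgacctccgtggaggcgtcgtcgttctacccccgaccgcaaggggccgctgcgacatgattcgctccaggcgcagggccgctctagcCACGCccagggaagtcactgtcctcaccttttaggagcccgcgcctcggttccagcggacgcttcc

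Of the windows printed, that of Acly held an HRE core at -71 and at 29 relative to the start, that of Got2 at -239 and -16, and those of Me1 and Gpt2 none. The Me1 window held the ARE core, and a second RefSeq window of Me1, inside the gene, held an HRE core at -98 from its own start. In RefSeq, 33 of the 37 members had a window. An HRE core was present in 23 of them (69.7%), beside 46.7% of the 27025 genes with a window, and an ARE core in 7 (21.2%), beside 14%. The estrogen-related receptor half-site AAGGTCA was found in 3 (9.09%), beside 5.38%. A gene was counted for a motif if any of its windows held it. The genes set beside the members were not matched to them for level or number of windows, and the differences in share were not tested.

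Malate entry held the largest rise. Me1, cytosolic malic enzyme, makes pyruvate and NADPH from malate. It read 659, 517 and 601 CPM in TG+ mice 43-29, 43-49 and 43-75, and 284, 320 and 280 CPM in TG- mice 43-26, 43-50 and 43-76. Every TG+ mouse lay far above every TG- mouse, and the log2 fold change was 1.01 ± 0.10 (SE, adjusted p = 0.000415, edgeR). Me1 lies on chr9:86581371-86695953 (GRCm38, - strand) and overlaps the antisense gene A330041J22Rik. Of the 51-base windows of its transcripts, 27.9% also occurred in transcripts of other genes, so that part of its reads could be split between copies. Me2, the mitochondrial NAD-dependent malic enzyme, took far fewer reads than Me1 (Me1 over Me2, 50.7 in TG-) and measured 6.47, 7.56 and 7.27 CPM in TG+ and 6.26, 5.43 and 5.73 CPM in TG-. Me3, the mitochondrial NADP-dependent enzyme, measured 29.2, 31.4 and 29.2 CPM in TG+ and 28.1, 28.6 and 28.5 CPM in TG-. The TG+ mice were above the TG- mice for both, yet neither passed the test (Me2, 0.29 ± 0.10, adjusted p = 0.0686; Me3, 0.08 ± 0.06, adjusted p = 0.354; edgeR). On the deposited RPKM scale, which accounts for length, Me1 rose from 45.4 ± 3.31 (SD, n = 3) to 89.2 ± 10.7, whereas Me2 and Me3 stayed below 3.1 in every mouse.

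The enzyme of cytosolic citrate use rose, whereas that of citrate formation was not called. Acly, ATP citrate lyase, splits exported citrate into the acetyl-CoA used for lipid synthesis. It measured 354, 302 and 298 CPM in TG+ and 250, 232 and 224 CPM in TG-, a log2 fold change of 0.43 ± 0.08 (adjusted p = 0.00728, edgeR), with no overlap between the groups. Cs, citrate synthase, measured 283, 274 and 290 CPM in TG+ and 307, 310 and 305 CPM in TG-. Its small difference of -0.12 ± 0.05 did not pass the test (adjusted p = 0.102, edgeR), although the TG+ values were all below the TG- values.

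The glutamate route held changes in both directions, and the clearest were opposite changes of the alanine aminotransferases, which exchange alanine and α-ketoglutarate for pyruvate and glutamate. Gpt, the cytosolic enzyme (chr15:76695716-76699686, GRCm38, + strand), fell to less than the lowest TG- level in all TG+ mice. It measured 21.2, 16.4 and 15.2 CPM in TG+ and 39.2, 38.6 and 42.6 CPM in TG-, a log2 fold change of -1.19 ± 0.12 (adjusted p = 0.000485, edgeR). Gpt2, the mitochondrial enzyme (chr8:85492576-85527560, GRCm38, + strand), measured 198, 171 and 136 CPM in TG+ and 117, 111 and 108 CPM in TG-. It was higher in every TG+ mouse, at 0.58 ± 0.12 (adjusted p = 0.0119, edgeR), and the TG+ mice differed more among themselves for Gpt2 than for any other member, with a coefficient of variation of 18.3%. Per length, the order of the pair turned over. In RPKM, Gpt exceeded Gpt2 in the TG- mice (22.4, 21.8 and 24.3 against 13.7, 12.9 and 12.6) and was below it in the TG+ mice (11.7, 9.12 and 8.50 against 22.3, 19.4 and 15.5).

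The aspartate aminotransferases pass nitrogen between glutamate and aspartate and work in the malate-aspartate shuttle. Got2, the mitochondrial enzyme, measured 55.4, 51.3 and 54.2 CPM in TG+ and 68.4, 71.2 and 69.5 CPM in TG-, a fall of 0.38 ± 0.05 on the log2 scale (adjusted p = 0.00202, edgeR). Got1, its cytosolic partner, measured 130, 129 and 122 CPM in TG+ and 148, 135 and 135 CPM in TG-. Neither gene overlapped between the groups, but the difference in Got1 of -0.13 ± 0.06 did not pass the test (adjusted p = 0.136, edgeR). Got2 has processed copies, and 25.4% of its 51-base windows also occurred in other genes' transcripts. Glud1, glutamate dehydrogenase, read 317 to 344 CPM in TG+ and 347 to 390 CPM in TG-, and its -0.13 ± 0.06 did not pass the test either (adjusted p = 0.163, edgeR).

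**Figure D2:**
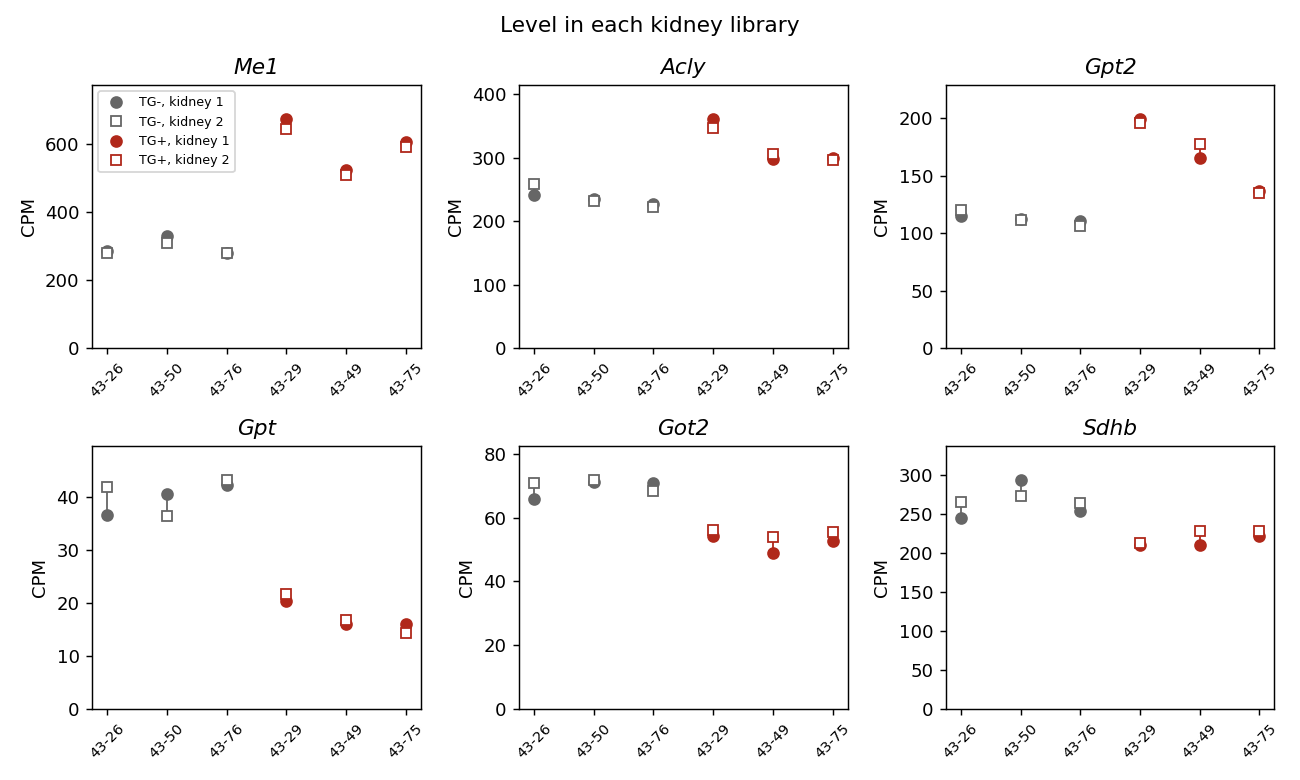
CPM of 6 genes in each kidney library (vertical axes from 0), by mouse, with circles for kidney 1 and open squares for kidney 2 and red for TG+. For each gene the kidneys of a mouse lie close together, and the 6 TG+ libraries do not overlap the 6 TG- libraries.

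Of the 5 genes of the pyruvate dehydrogenase complex, 3 were called lower, beside 10.9% of all genes and 34.1% of those at 100 CPM or more, and none of the 3 with library size as the only scaling (adjusted p of 0.117 to 0.183, edgeR). Dlat, the E2 acetyltransferase core, measured 133, 148 and 135 CPM in TG+ and 170, 166 and 167 CPM in TG-, a log2 fold change of -0.27 ± 0.06 (adjusted p = 0.0115, edgeR). Pdhx, the E3-binding protein, and Dld, the E3 dihydrolipoamide dehydrogenase shared with the α-ketoglutarate complex, also fell, by 0.22 and 0.21 on the log2 scale, and no TG+ mouse reached a TG- value for any of these genes. The E1 subunits were not called. Pdha1 read 554, 565 and 565 CPM in TG+ and 575, 642 and 581 CPM in TG- (-0.09 ± 0.06, adjusted p = 0.282, edgeR), and Pdhb overlapped between the groups at 32.9 to 34.7 against 34.7 to 36.3 CPM (adjusted p = 0.323). A difference in change between E1 and E2 was not tested. The subunits of the complex differed 14-fold in level per length in TG-, from 8.09 RPKM for Pdhx to 114 RPKM for Pdha1.

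The mitochondrial pyruvate carrier subunits were not called and overlapped between the groups. Mpc1 read 7.40 to 10.5 CPM in TG+ and 8.97 to 10.9 CPM in TG-, and Mpc2 124 to 128 against 128 to 147 CPM. Of the 51-base windows of Mpc1, 26.1% occur in other genes too, so that its low level is uncertain. Pcx, pyruvate carboxylase, the anaplerotic entry of pyruvate as oxaloacetate, read 835, 822 and 859 CPM in TG+ and 703, 874 and 788 CPM in TG-. The groups overlapped and Pcx was not called (0.09 ± 0.08, adjusted p = 0.463, edgeR).

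From isocitrate to oxaloacetate, part of the genes of the cycle were called lower. Counting the dehydrogenase complex and the cycle enzymes inside the mitochondrion, 21 genes, 11 were called lower and none higher, beside 10.9% of all genes and 34.1% of genes at 100 CPM or more called lower, and none of the 11 was called when libraries were scaled by size. Their median log2 fold change was -0.20, beside -0.13 for all genes at 100 CPM or more and 0.01 for all genes tested, and all 21 were below 0 with TMM scaling, although Pdha1, Pdhb and Suclg1 were above 0 when libraries were scaled by their size alone.

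The isocitrate dehydrogenases oxidise isocitrate to α-ketoglutarate. Idh1, the cytosolic NADP-dependent enzyme, fell from 767, 684 and 637 CPM in TG- to 567, 585 and 601 CPM in TG+ (-0.25 ± 0.07, adjusted p = 0.0423, edgeR). The TG- mice themselves differed for Idh1 by more than the nearest mice of the groups did, and its call was lost without any mouse except 43-76. Idh2, the mitochondrial NADP-dependent enzyme, measured 327, 338 and 340 CPM in TG+ and 367, 391 and 395 CPM in TG- (-0.20 ± 0.05, adjusted p = 0.0299). Of the NAD-dependent trimer, Idh3g was called (-0.24), whereas Idh3a (137, 161 and 146 CPM in TG+ against 173, 169 and 162 CPM in TG-) and Idh3b were not, at -0.18 and -0.21, with TG+ below TG- in every mouse for all of them. Aco1, the cytosolic aconitase that forms isocitrate outside the mitochondrion and also acts as an iron-regulatory protein, overlapped between the groups at 401 to 417 against 403 to 435 CPM (adjusted p = 0.854, edgeR).

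The α-ketoglutarate dehydrogenase complex forms succinyl-CoA. Its E2 core Dlst measured 392, 406 and 413 CPM in TG+ and 472, 485 and 481 CPM in TG-, a log2 fold change of -0.25 ± 0.05 (adjusted p = 0.00967, edgeR). Its E1 subunit Ogdh, at 779 to 803 CPM in TG+ and 850 to 921 CPM in TG-, did not pass the test (-0.16 ± 0.05, adjusted p = 0.0581). Of the succinyl-CoA ligase, which makes ATP or GTP, the ATP-specific subunit Sucla2 read 152, 153 and 154 CPM in TG+ and 177, 196 and 174 CPM in TG- (-0.25 ± 0.06, adjusted p = 0.0191). The GTP-specific Suclg2 moved by as much, from 76.2, 80.2 and 77.0 CPM in TG- to 67.0, 61.5 and 69.7 CPM in TG+ (-0.24 ± 0.06, adjusted p = 0.026), and the shared subunit Suclg1 overlapped between groups and was not called (adjusted p = 0.303).

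Succinate dehydrogenase is both a cycle enzyme and complex II of the respiratory chain. Sdhb, its iron-sulfur subunit, measured 212, 219 and 225 CPM in TG+ and 255, 284 and 259 CPM in TG-, the largest fall of the cycle subunits at 0.28 ± 0.06 on the log2 scale (adjusted p = 0.0129, edgeR). The flavoprotein subunit Sdha and the membrane anchor Sdhd were also called, at -0.21 and -0.20, and the other anchor Sdhc was not, at -0.16 (adjusted p = 0.0817). All 4 subunits lay lower in every TG+ mouse than in any TG- mouse, as did 49.5% of genes at 100 CPM or more, and with library size as the only scaling none was called (Sdhb, adjusted p = 0.0635, edgeR). Fh1, fumarase, differed by -0.15 (adjusted p = 0.0738) and was not called.

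Malate dehydrogenase closes the cycle. Mdh1, the cytosolic enzyme of the malate-aspartate shuttle, measured 875, 863 and 855 CPM in TG+ and 982, 1074 and 971 CPM in TG- (-0.22 ± 0.06, adjusted p = 0.026, edgeR). Mdh2, the mitochondrial enzyme, measured 334, 326 and 337 CPM in TG+ and 365, 377 and 356 CPM in TG-, and its difference of -0.14 ± 0.05 did not pass the test (adjusted p = 0.0788). D2hgdh, which returns D-2-hydroxyglutarate to α-ketoglutarate, overlapped between the groups at 23.4 to 24.8 against 22.4 to 26.3 CPM.

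In all, the TG+ mice lay below every TG- mouse in 25 members and above in 5, and overlapped in 7, beside 20.8% of all genes below and 23.4% above, and 49.5% and 12% of genes at 100 CPM or more. The log2 fold change was below 0 in 31 members, beside 48.2% of all genes and 73% of genes at 100 CPM or more, and in 26 with libraries scaled by size alone. By place in the cell, 2 of 7 cytosolic genes were called higher (Me1, Acly) and 3 lower (Idh1, Mdh1, Gpt), and 1 of 30 mitochondrial genes was called higher (Gpt2) and 12 lower, beside 15.4% higher and 10.9% lower of all genes and 8.56% and 34.1% of those at 100 CPM or more. With library size as the only scaling, Gpt was the lower call left in the cytosol and Got2 in the mitochondrion.

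**Figure D3:**
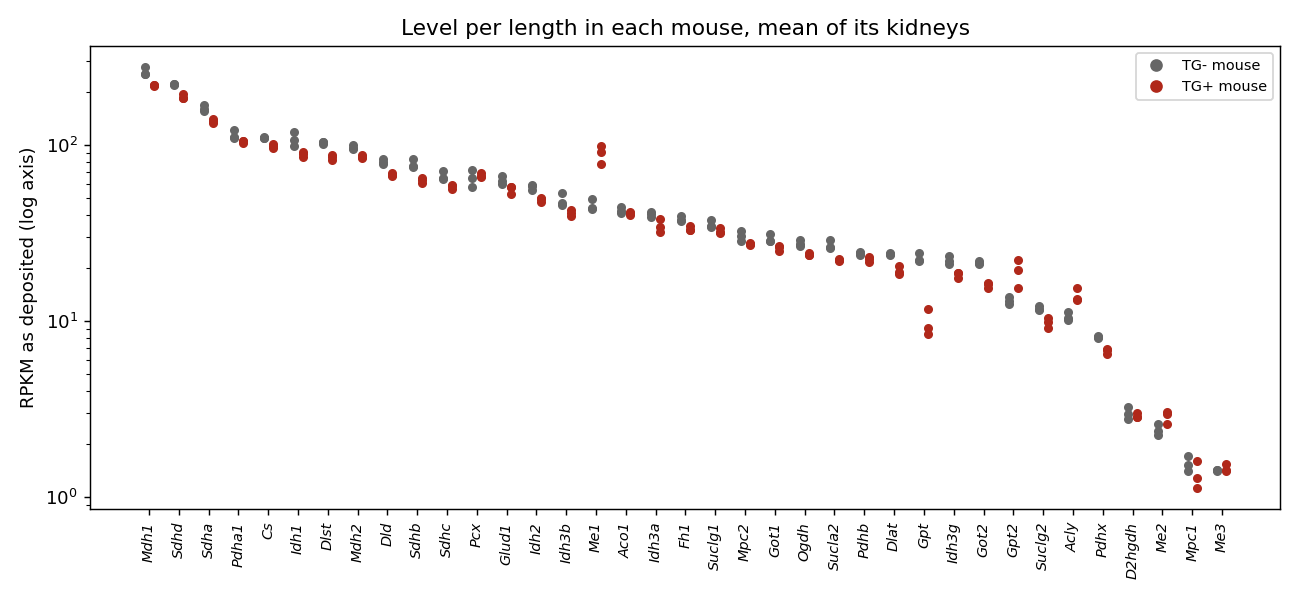
Deposited RPKM of each member in each mouse on a log axis, ordered by the TG- mean, with TG- mice in grey and TG+ mice in red. Mdh1, Sdhd and Sdha lead in TG- at 261, 222 and 162 RPKM, and Me1 is far above its neighbours in TG+.

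The levels per length spanned a wide range. In TG-, the mean RPKM was highest for Mdh1 (261), Sdhd (222), Sdha (162), Pdha1 (114), Cs (110) and Idh1 (108), and lowest for Me3 (1.43), Mpc1 (1.55), Me2 (2.41) and D2hgdh (3.0). Within succinate dehydrogenase the subunits spanned 3.34-fold, within NAD-dependent isocitrate dehydrogenase 2.20-fold and within succinyl-CoA ligase 2.99-fold.

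Ratios of reads between partner genes within a mouse do not depend on how libraries are scaled against each other, and they were compared for 10 pairs by an exact 2-sided permutation test, which has 20 ways to assign the mice and cannot give a p below 0.1. The ratios are not corrected for gene length, which leaves their difference between groups unaffected. Of the 10 pairs, 7 did not overlap between the groups, each with the smallest p of 0.1 (0.143 adjusted over the 10). No share over pairs of other genes was computed, so that this count has no background. Most of the 7 hold a gene called above, and Me1 over Me3 and Me1 over Me2 share a gene. Of single genes at 100 CPM or more, 49.5% lay below and 12% above without overlap. The largest difference was that of Gpt over Gpt2, at log2 ratios of -3.22, -3.38 and -3.16 in TG+ and -1.58, -1.53 and -1.34 in TG-, a difference of -1.77. The log2 ratio was higher in TG+ by 0.93 for Me1 over Me3, by 0.71 for Me1 over Me2 and by 0.55 for Acly over Cs. Smaller differences without overlap were seen for Got1 over Got2 (0.25), Pcx over Pdha1 (0.19) and Mdh1 over Mdh2 (-0.08). Those of Idh1 over Idh2 (-0.05, exact p = 0.8), Sucla2 over Suclg2 (-0.01, exact p = 0.7) and Idh2 over Idh3a (-0.01, exact p = 0.8) overlapped.

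**Figure D4:**
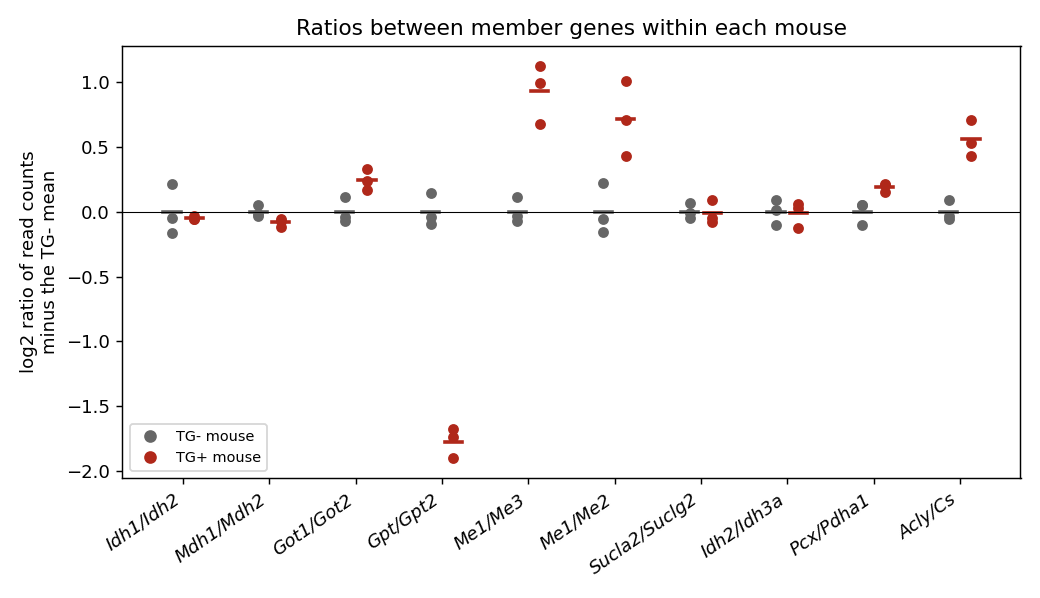
Log2 ratio of read counts between partner members in each mouse, with the TG- mean of each pair set to 0 (points are mice, short lines group means, n = 3 per group). The group means of Gpt/Gpt2 differ by -1.77, and Me1/Me3, Me1/Me2 and Acly/Cs are higher in TG+ without overlap.

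Most of the small falls depended on the scaling of the libraries. TMM factors lay between 0.944 and 0.968 for TG- mice and between 1.03 and 1.07 for TG+ mice, and the 37 genes together took 1.08 to 1.10% of all gene reads in TG+ and 1.04 to 1.09% in TG-, so that before TMM scaling their summed share was not lower in TG+. After it, their summed level was 10289 to 10472 CPM in TG+ and 10814 to 11561 CPM in TG-. Scaled by library size alone, 5 members were called higher (Me1, Acly, Gpt2, Me2 and Me3) and 2 lower (Gpt and Got2), and all genes tested split into 4511 higher and 947 lower calls in place of 2982 and 2105. The median of all genes then shifted from 0.01 to 0.13 and that of the members from -0.16 to -0.04. Relative to the median gene, the members lay 0.18 lower with TMM and 0.17 lower with library size, and relative to the median of genes at 100 CPM or more they lay 0.04 lower with either scaling. Leaving out mice also moved the count of 15 lower members by more than 1.5 times. It was 7 without TG- mouse 43-50, 8 without 43-76, 8 without TG+ mouse 43-29 and 9 without 43-75. Sdhd, Mdh1, Idh2, Suclg2, Dld, Sdha, Idh1, Idh3g and Pdhx each lost the call without some of the mice while staying below 0, namely 4 of them without 43-26 (Dld, Idh1, Pdhx, Sdhd), 8 without 43-50 (all but Pdhx), 7 without 43-76 (all but Dld and Idh1), 7 without 43-29 (all but Idh3g and Pdhx), 2 without 43-49 (Idh1, Sdha) and 6 without 43-75 (all but Dld, Sdhd and Suclg2). Mouse 43-50 was the highest of the TG- mice in 27 of the 37 genes. Dlat, Dlst, Sdhb and Sucla2 were called whichever mouse was left out, and Gpt, Got2, Me1 and Acly under all 15 alternatives run, whereas Gpt2 lost its call in 1 of them, without mouse 43-76 (0.55, adjusted p = 0.0505, edgeR).

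**Figure D5:**
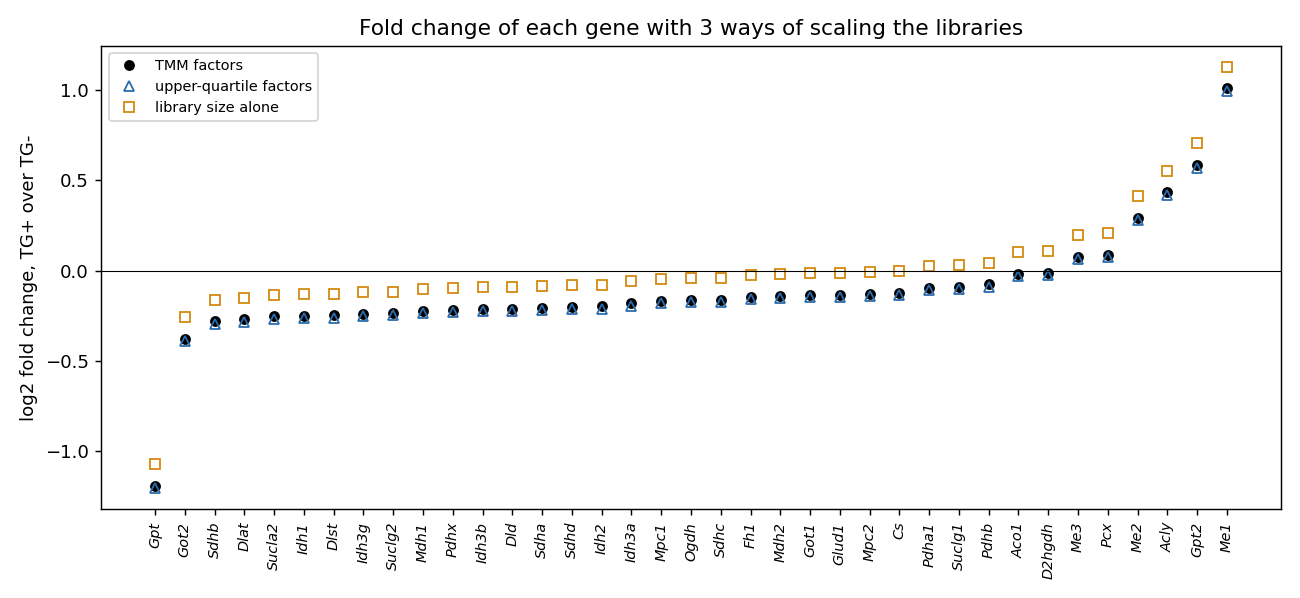
Log2 fold change of TG+ over TG- for each member with libraries scaled by TMM factors, by upper-quartile factors and by library size alone, ordered by the TMM value. Library size alone lifts every member by about the same amount, which puts Pdha1, Pdhb, Suclg1, Aco1 and D2hgdh above 0 and leaves Gpt and Got2 below and Me1, Gpt2 and Acly above.

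The kidneys of a mouse agreed closely for these genes, with a median absolute log2 difference of 0.039, and all 6 TG+ libraries lay apart from all 6 TG- libraries in 24 members, below in 21 and above in 3, beside 12.1% of all genes below and 13.1% above. Among genes at 100 CPM or more these shares were 40.6% below and 9.24% above, and of the 28 members at that level 17 lay below and 3 above. The largest difference between kidneys fell in mouse 43-49 for 17 members, and over all genes the kidneys of 43-49 also differed most, with a chi-square of 6.91 per gene beside 1.89 to 4.30 in the other mice. The fewest reads behind any member were 280 in a mouse, for Me2.

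The summed level of the members over that of 13 nuclear genes of the mitochondrial pore, import machinery, chaperones, prohibitins and DNA maintenance was 5.69 to 5.88 in TG+ and 5.90 to 6.20 in TG-. In that list 2 genes were called lower, Hspd1 and Tfam, and none higher, with a median of -0.04. Of all genes 10.9% were called lower, and of those at 100 CPM or more 34.1%. Over the 20 proximal tubule markers, the members' summed level was 0.240 to 0.260 in TG+ and 0.194 to 0.196 in TG-, beside a median log2 fold change of -0.16 for the members and -0.41 for these markers.

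Of 37 further genes of the pathway, 36 could be tested, and 7 were called higher and 12 lower, beside 15.4% and 10.9% of all genes and 8.56% and 34.1% of those at 100 CPM or more. With library size as the only scaling 7 were lower. The regulators of pyruvate entry were called in both directions. Pdk1, a kinase that inactivates pyruvate dehydrogenase, rose from 37.2, 39.9 and 41.3 CPM in TG- to 334, 277 and 300 CPM in TG+ (2.94 ± 0.08, adjusted p = 2.45e-06, edgeR), and Pdk3 rose by 0.52, whereas Pdk2 fell by 0.35. The phosphatases that reactivate the complex went opposite ways, with Pdp1 higher by 0.44 and Pdp2 lower by 0.64 (0.44 ± 0.10 and -0.64 ± 0.09). Pdk4 was not called, and of its TG- values of 15.5, 132 and 27.6 CPM the highest was that of mouse 43-50.

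Upstream of the glutamate route, the glutamine transporters Slc1a5 and Slc38a3 rose by 0.61 and 1.08 on the log2 scale. Pck2, the mitochondrial PEP carboxykinase that draws on oxaloacetate, rose by 0.99 from 14.3 to 17.7 CPM in TG- to 30.0 to 33.0 CPM in TG+, and Pck1, the cytosolic enzyme, varied too widely between mice to be called (adjusted p = 0.239). Lower calls fell on the propionate route to succinyl-CoA (Mut -0.46, Pcca -0.36, Pccb -0.22), on Adhfe1 (-0.55) and on the carriers Slc25a21 (-0.29) and Slc25a11 (-0.23). The succinate dehydrogenase assembly factor Sdhaf1 fell by 0.27, and Ogdhl, a low-level relative of Ogdh, by 1.14. The other 17 were not called, and the median over the 36 tested was -0.19. With library size as the only scaling the lower calls among the 36 went from 12 to 7, and which genes kept them is not given here.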

How the data were processed

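RNAseq libraries were made by the authors from outer kidney cortex with a TruSeq RNA kit and sequenced as 51-base single reads. The authors deposited read counts per Ensembl gene for each library, together with RPKM values, which proved proportional to the count plus 1. The processing notes name the mouse genome mm9, the study's methods name the Tuxedo tools in general, and the use of strand in counting is not given in the sources used here. Deposited fold changes and p-values of the authors' comparison, and log2 RPKM columns, were not used.

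Counts of the kidneys of a mouse were summed (n = 3 mice per group; depth is given above). Genes passing filterByExpr (19399) were fitted with edgeR 4.0.16 in R 4.3.3 (TMM, glmQLFit, glmQLFTest, Benjamini-Hochberg over all). The standard error is the log2 fold change divided by the square root of F. The edgeR p-values set the difference between groups against the variation between these mice, with the variation of each gene moderated over the genes tested. Alternatives were library size or upper-quartile factors, no filter, kidneys kept as libraries or taken singly, a block of mouse pairs, each mouse left out, and DESeq2 1.42.0 on the summed counts. Scripts were tested on simulated data. Gene positions come from GENCODE M21 by Ensembl ID (32642 of 37681 matched, 86.6%), promoter windows from RefSeq. Values per mouse are printed for called members (the 7 largest falls) and for both members of each ratio pair, and other pathway genes are named where called, except some that are not reported here. Pdk4 and Pck1 were added after their values were seen. Members and lists were chosen with earlier results of these data known.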

Additional observations from a re-analysis of the deposited data

How the results depend on the processing

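With library size alone, 5 members were higher, 2 lower, the median was -0.043 and 7 other pathway genes were lower. That scaling reversed Pdha1 (0.026), Pdhb (0.044), Aco1 (0.10), Suclg1 (0.031) and D2hgdh (0.11). With each kidney as its own library 25 members were lower, as also with the kidney number as a replicate block (25), but the kidneys of a mouse are not independent animals. Upper-quartile factors and DESeq2 each left 1 member past the study's threshold. DESeq2 called 20 members lower. Over the 6 fits that each left out a mouse, 2 to 3 members were higher, 7 to 14 lower and 1 to 2 past the study's threshold, the median was -0.18 to -0.13, 7 to 13 other pathway genes were lower (7 without 43-50 and without 43-76), and 7 to 8 ratio pairs did not overlap. Over the same fits Aco1 ranged from -0.042 to 0.014 and D2hgdh from -0.067 to 0.049, each above 0 without mouse 43-50, and D2hgdh read 0.00025 in the second kidney alone. The log2 ratio differences without a mouse ranged from -0.13 to 0.055 for Idh1/Idh2, -0.066 to 0.019 for Sucla2/Suclg2 and -0.067 to 0.041 for Idh2/Idh3a, and in the second kidney alone were 0.0083 for Idh1/Idh2 and 0.0098 for Sucla2/Suclg2. Where the values do not show it, the cause was not tested.

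With the pairs of mice in the table's name as a replicate block, 3 members were higher and 14 lower, 13 of them among the 15, and Sdha (adjusted p = 0.0548, edgeR) and Idh1 (0.0581) lost their calls. The deviations of paired mice from their group means correlated at 0.283, 0.307 and -0.0599. These values were not set beside those of mice outside the pairs, so that they cannot decide whether the names pair the animals. The main fit used no block. With the block, 3413 of all genes tested were called higher and 2499 lower, in place of 2982 and 2105. With 3 mice per group, differences of the size of most cycle genes did not pass the test under every setting, and the shift of the all-gene median between scalings, from 0.01 to 0.13, is not small beside them.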
